A study of Mus musculus with 18 samples.

Results

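The platelet-derived growth factor (PDGF) system of the mouse thyroid was examined in cells that export a DNA dye, the side population, and in the remaining cells, the main population. Its members are the receptor genes Pdgfra and Pdgfrb and the ligand genes Pdgfa, Pdgfb, Pdgfc and Pdgfd, 6 of the 20455 genes tested. They were chosen by name: every probe whose gene name in the scanner files equals a member was taken, which gave 12 of 41174 probes and 21 spots on each array. All 6 members passed the filter on dim probes, which asked for a signal well above background on at least 3 of the 18 arrays, and 1 of their 12 probes did not pass. In thyroids without surgery both receptors were higher in the side population than in the main population, Pdgfrb 29.7-fold and Pdgfra 12.5-fold, and Pdgfc was 4.01-fold higher. Pdgfa did not pass with all arrays and passed without 2 arrays that stand apart. Pdgfd did not pass, nor did Pdgfb on its brighter probe. The other Pdgfb probe was lower in the side population and passed only without those arrays.

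The study measured RNA of sorted thyroid cells from C57BL/6 mice of both sexes, taken after partial thyroidectomy, in which part of the gland is cut away, or without it. The mice's age, the number of animals behind each sample and the interval after surgery are not given in the sources used here. Collagenase and dispase 1 released the cells, which spent 2 days in culture before they were stained with a Hoechst dye, with or without verapamil, a blocker of efflux pumps, and sorted by flow cytometry. The 4 groups were the side population after partial thyroidectomy (TSP, 6 arrays), the side population without it (CSP, 6), the main population after partial thyroidectomy (TMP, 3) and the main population without it (CMP, 3). Sample RNA carried Cy5 and was hybridised beside a Cy3-labelled pool of total RNA from many Swiss Webster mouse tissues, with no dye swap. A level below is the log2 ratio of sample over that pool, and a difference is between groups on the same probe. The tissue pool differs in content from gene to gene, so the levels of different genes are not set against each other.

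The arrays lay on 5 slides, and 38.8% to 72.0% of their spots were well above background in Cy5. Precision is limited by how many arrays there are. The arrays labelled TSP 1 and TSP 2 stand apart from their group. Across genes their median correlation was 0.945 and 0.955 with the main population arrays and 0.695 and 0.697 with the other 10 side population arrays, which among themselves reached 0.845 to 0.882. The counts of members called between side and main population are therefore given with these 2 arrays and without them, and the second choice was made with their profile known. List counts and single differences between CSP and CMP come from the fit with all arrays unless said. The labels were checked against marker genes. The side population had lower levels of transcripts that define the organ: all 7 epithelial and 7 of 9 thyroid follicular markers were lower in CSP than in CMP (limma, adjusted p under 0.05), where 7.25% of all genes tested were lower. The follicular markers that did not pass were Tg (difference -1.18; limma, adjusted p = 0.268) and Slc5a5, the iodide transporter (-0.24, 0.525). Tg was well above background on all 6 CSP arrays. Slc5a5 was near the floor, well above background on 0 of 6 CSP and 0 TSP arrays, 2 of 3 CMP arrays and 1 TMP array.

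PDGFs are secreted dimers of A, B, C or D chains that bind and pair 2 receptor tyrosine kinases. The alpha receptor binds A, B and C chains and the beta receptor binds B and D chains, and phosphorylated tyrosines on the paired receptors then recruit signalling proteins. Chains A and B are cut inside the cell before release, whereas C and D are secreted with a CUB domain that proteases such as the plasminogen activators must remove before they can bind. In many organs epithelium and endothelium make the ligands, while fibroblasts, pericytes and smooth muscle cells carry the receptors and respond by dividing and migrating.

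Each member except Pdgfrb was read by more than 1 probe. The following 3 probes are shown because an open reading frame runs through each, and because they give a reading of their gene that is separate from the brighter probe used in the tests. They are printed 5′ to 3′ as the scanner files give them, 60 bases each, with the cysteine codons of that frame in capitals. Where they lie in the protein was not analysed here.
Pdgfra probe A_52_P264283: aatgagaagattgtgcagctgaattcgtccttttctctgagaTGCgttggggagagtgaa
Pdgfa probe A_51_P370099: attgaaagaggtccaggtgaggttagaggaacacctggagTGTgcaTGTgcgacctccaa
Pdgfd probe A_52_P264790: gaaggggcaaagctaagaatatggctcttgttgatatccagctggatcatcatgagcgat
The Pdgfra probe (chr5:74581841-74581900, plus strand, build mm7 of the file headers) holds 1 such codon. The Pdgfa probe (chr5:137951288-137951347, minus strand, mm7) holds 2, and PDGF chains are known for a cystine knot. The Pdgfd probe (chr9:6334682-6334741, plus strand, mm7) holds 0.

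Pdgfrb, the beta receptor, showed the widest separation of the 6 genes. Its probe lies on chromosome 18, 61474380 to 61474439 (mm7, plus strand). Levels were 3.02, 3.98, 3.21 and 3.85 on TSP 3 to TSP 6 and -1.46 and -1.54 on TSP 1 and TSP 2, against -1.53, -2.62 and -2.06 on the TMP arrays. CSP arrays ran from 2.25 through a median of 2.98 to 3.84, against -1.71, -2.38 and -1.62 on the CMP arrays. All 6 CSP arrays and TSP 3 to TSP 6 lay far above every main population array, TSP 1 lay just above the highest of these, TMP 1, and TSP 2 just below it. CSP averaged 2.99 ± 0.57 (SD, n = 6) and CMP -1.91 ± 0.41 (SD, n = 3). The difference was 4.89 on the log2 scale (SE 1.01), a 29.7-fold higher level in CSP, and passed the test (limma, Benjamini-Hochberg adjusted p = 0.00811). It ranked 20 from the highest of 20455 genes.

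Pdgfra, the alpha receptor, had the next largest difference. Its brighter probe, on chromosome 5 from 74616116 to 74616175 (mm7, plus strand), is printed at 10 spots on each array, and the SD between these spots had a median of 0.0895 over arrays, with a range of 0.0437 to 0.305. Levels were -0.01, 0.68, -0.63 and 0.30 on TSP 3 to TSP 6 and -3.03 and -2.79 on TSP 1 and TSP 2, against -2.89, -3.11 and -3.91 on the TMP arrays. CSP arrays ran from -1.16 (CSP 3) through a median of 0.35 to 1.00 (CSP 2), against -3.31, -3.45 and -3.66 on the CMP arrays. Again all 6 CSP arrays lay above every CMP array. The SD between CSP arrays was 0.793 (n = 6), and the SD between spots does not cover labelling, hybridisation or slide. CSP exceeded CMP by 3.65 on the log2 scale (SE 0.69, 12.5-fold; limma, adjusted p = 0.00795).

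The Pdgfra probe printed above was dim. It was well above background on 2 of 6 TSP and 4 of 6 CSP arrays and on 0 TMP and 0 CMP arrays, so no fold is given for it. Having passed the filter only through side population arrays, this probe adds no count, and its own test did not pass (limma, adjusted p = 0.0881 for CSP against CMP over 29803 probes).

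**Figure D1:**
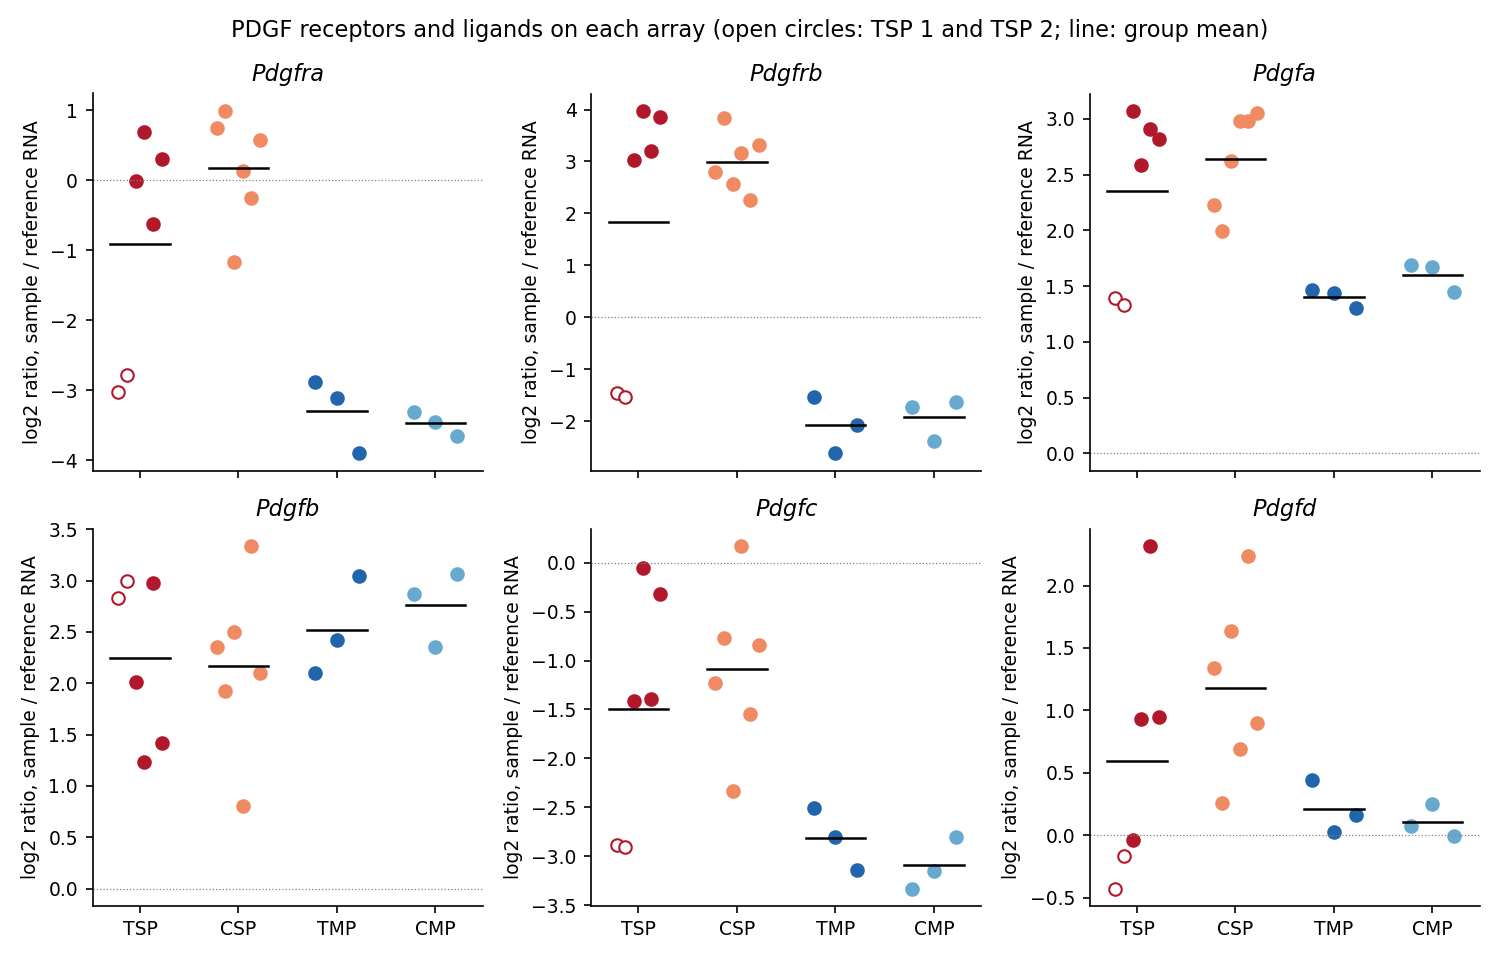
Log2 ratio of sample over reference RNA (y axis) of the 6 PDGF genes on each of the 18 arrays, by group (x axis: TSP, CSP, TMP, CMP). Points are arrays, open circles are TSP 1 and TSP 2, lines are group means and the dotted line is a ratio of 1. Pdgfrb lies between 2.25 and 3.98 on 10 side population arrays and between -2.62 and -1.46 on all main population arrays and TSP 1 and TSP 2, whereas the groups of Pdgfb overlap.

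Pdgfa, which encodes the A chain, a ligand of the alpha receptor alone, was higher in the side population by a smaller step. Levels of its brighter probe (chromosome 5, 137949185 to 137949244, minus strand, mm7) were 3.07, 2.59, 2.91 and 2.82 on TSP 3 to TSP 6 and 1.39 and 1.33 on TSP 1 and TSP 2, against 1.46, 1.44 and 1.31 on the TMP arrays. On the CSP arrays it ran from 1.99 through a median of 2.80 to 3.05, against 1.68, 1.67 and 1.44 on the CMP arrays. The CSP and CMP arrays did not overlap. CSP averaged 2.64 ± 0.44 (SD, n = 6) and CMP 1.60 ± 0.13 (SD, n = 3), a difference of 1.04 (SE 0.36, 2.06-fold) that did not pass with all arrays (limma, adjusted p = 0.0613) and passed without TSP 1 and TSP 2 (0.00525). With all arrays or all but 1 it also passed in limma with slide as a fixed or random block (adjusted p = 0.00138 and 0.00277), in a fit of only CSP and CMP (0.0209), with probes averaged (0.0289) and without CSP 2 (0.0457), TSP 1 (0.0376) or TSP 2 (0.0344). These and the fit without TSP 1 and TSP 2 were 8 of 35 alternatives, and the rest did not call it. Of 18 fits that left out 1 array, 3 called it. The sign held in all 35, with limma adjusted p up to 0.758. The Pdgfa probe printed above passed in both fits, with a difference of 1.35 between CSP and CMP (limma, adjusted p over probes 0.0297 with all arrays, 0.0071 without TSP 1 and TSP 2). On that probe TSP 6, at 1.90, lay within the TMP range of 1.77 to 1.91, while its level on the brighter probe was 2.82. TSP 6 had a raised floor. A Pdgfc probe not well above background on any array had a mean log2 intensity over both dyes of 9.80 there, against 5.84 to 7.55 on the other arrays. The Pdgfa probe printed above was at 11.35 on TSP 6, and the effect of this floor on its ratios was not tested.

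Pdgfc, which encodes the C chain, was also higher in the side population. Levels of its brighter probe (chromosome 3, 81318320 to 81318379, plus strand, mm7) were -1.42, -0.06, -1.40 and -0.32 on TSP 3 to TSP 6 and -2.88 and -2.90 on TSP 1 and TSP 2, against -2.50, -2.80 and -3.14 on the TMP arrays. CSP arrays ran from -2.33 (CSP 3) through a median of -1.04 to 0.17 (CSP 4), against -3.33, -3.15 and -2.80 on the CMP arrays. The probe was not well above background on 1 array each of TSP, TMP and CMP. The CSP and CMP arrays did not overlap, but the span of CSP was wider than its distance from CMP. The difference between CSP and CMP was 2.00 (SE 0.57, 4.01-fold; limma, adjusted p = 0.0252). The call was lost when any CMP array was left out of the fit with all TSP arrays (adjusted p = 0.102 without CMP 1, 0.0899 without CMP 2 and 0.0517 without CMP 3), and it held in each of 16 fits that left out 1 array in addition to TSP 1 and TSP 2. A second probe 153 bases away gave 1.61 (limma, adjusted p over probes 0.0617 with all arrays, 0.0145 without TSP 1 and TSP 2). The remaining Pdgfc probe, 3037 bases away, was not well above background on any of the 18 arrays.

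Pdgfd, which encodes the D chain, a ligand of the beta receptor, did not pass the test. Levels of its brighter probe (chromosome 9, 6336473 to 6336532, plus strand, mm7) were -0.04, 0.93, 2.32 and 0.95 on TSP 3 to TSP 6 and -0.43 and -0.17 on TSP 1 and TSP 2, against 0.44, 0.02 and 0.16 on the TMP arrays. The CSP levels ran from 0.26 (CSP 2) through a median of 1.12 to 2.23 (CSP 5), against 0.07, 0.25 and 0.00 on the CMP arrays. CSP lay above CMP on every array, though only by 0.26 against 0.25 at the nearest point, while the TSP and TMP arrays overlapped even without TSP 1 and TSP 2. The difference between CSP and CMP was 1.07 (SE 0.49, 95% interval 0.05 to 2.09; limma, adjusted p = 0.148, and 0.0943 without TSP 1 and TSP 2). With slide as a fixed block it was 1.89 and passed (adjusted p = 0.0142). Of 35 alternatives to the fit with all arrays, 2 called it. The Pdgfd probe printed above gave 0.64 (limma, adjusted p = 0.443), with its spot left out on CMP 3 and TMP 2 because the scanner software marked it.

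Pdgfb, which encodes the B chain, a ligand of both receptors, was the only member whose mean was lower in the side population, and its brighter probe did not pass. Levels of that probe (chromosome 15, 80080029 to 80080088, minus strand, mm7) were 2.02, 1.23, 2.98 and 1.42 on TSP 3 to TSP 6 and 2.83 and 2.99 on TSP 1 and TSP 2, against 2.10, 2.42 and 3.04 on the TMP arrays. The CSP levels ran from 0.81 (CSP 4) through a median of 2.22 to 3.34 (CSP 5), against 2.87, 2.35 and 3.07 on the CMP arrays. The groups overlapped in both comparisons. The difference between CSP and CMP was -0.59 (SE 0.47, 95% interval -1.58 to 0.39; limma, adjusted p = 0.439), and it was 0.37 within slide 4, the opposite sign.

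The other Pdgfb probe, 811 bases away, separated the populations more. On it levels were 1.33, 0.85, 1.1 and 0.28 on TSP 3 to TSP 6 and 2.71 and 2.59 on TSP 1 and TSP 2, against 2.28, 1.79 and 2.29 on the TMP arrays. The CSP levels ran from -0.12 through a median of 0.48 to 1.87, against 2.35, 1.82 and 1.98 on the CMP arrays, with CSP 3 at 1.87 above the lowest CMP array. It was not well above background on 2 of 6 CSP arrays and on TSP 5. On TSP 6 its mean log2 intensity over both dyes was 10.07, near the 9.80 of the undetected Pdgfc probe on that array. CSP fell below CMP by 1.27 on the log2 scale, which passed only without TSP 1 and TSP 2 (limma, adjusted p over probes 0.0334, against 0.104 with all arrays). TSP against TMP, again without these 2 arrays, gave -1.23 and did not pass (0.0688).

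**Figure D2:**
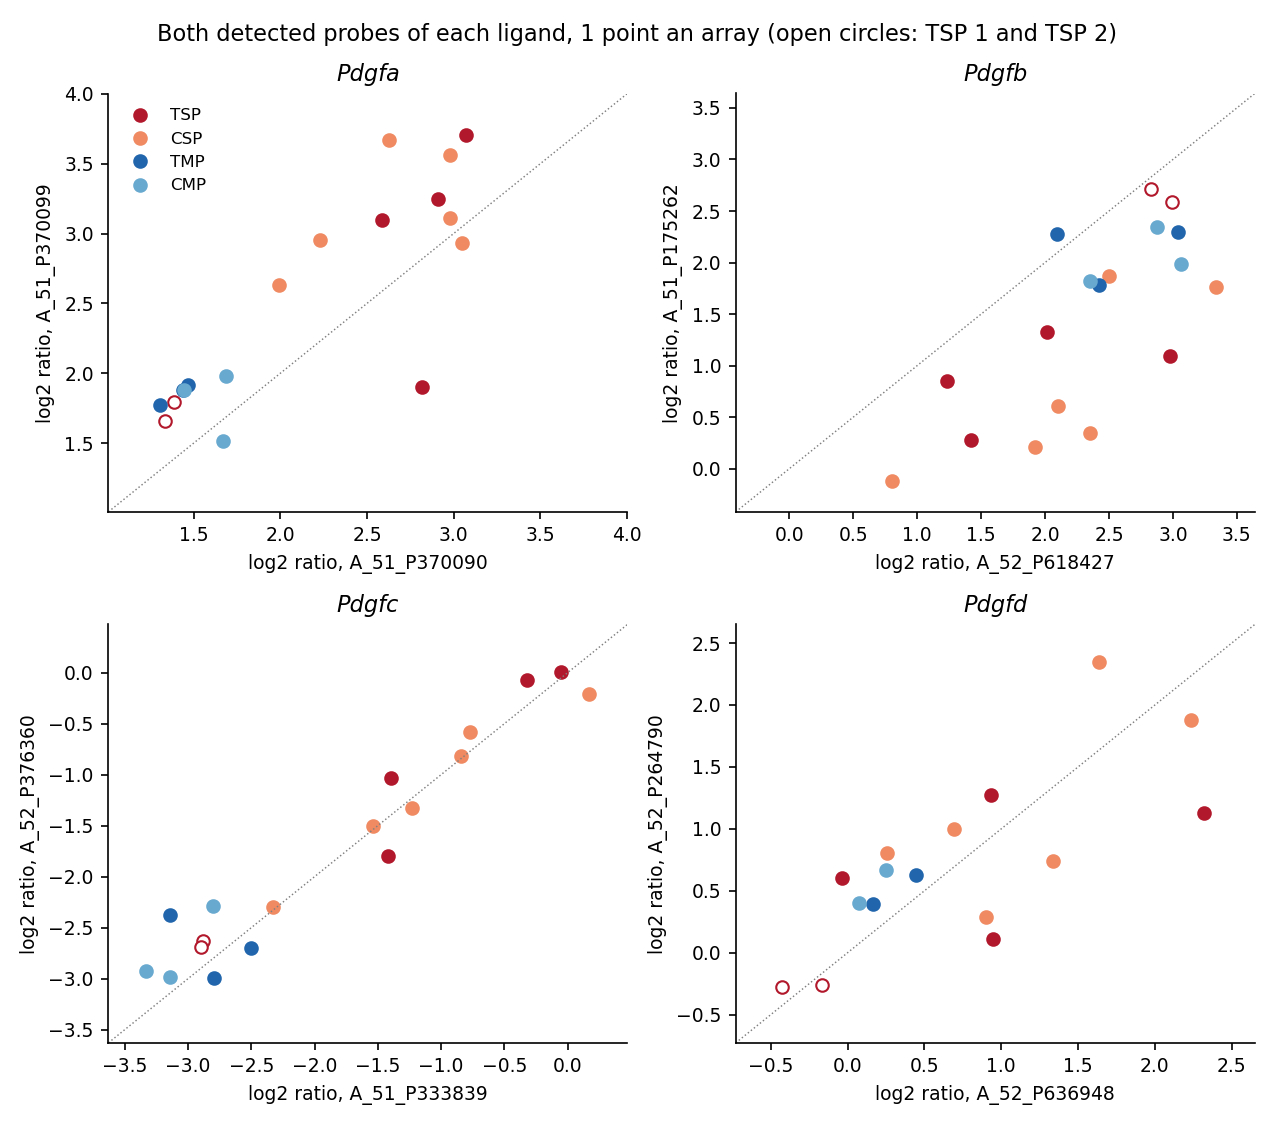
Log2 ratios of the detected probes of each ligand gene, with the brighter probe on the x axis and the other on the y axis, 1 point an array, coloured by group. The dotted line marks equal values and open circles are TSP 1 and TSP 2. The Pdgfc probes follow the line, the Pdgfb points of CSP 1, CSP 2, CSP 5, CSP 6, TSP 5 and TSP 6 lie further below it than any main population point, and Pdgfd shows 16 arrays because 2 spots of its other probe were left out.

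The receptors had larger differences between the populations than the ligands. With all arrays, 3 of 6 members were called between CSP and CMP, all higher in CSP, where 14.9% of all genes tested were called, 7.61% higher and 7.25% lower. The number of genes called rested on the CMP arrays, with 1144 without CMP 1 and 569 without CMP 2, against 3039 with all arrays. Of all calls 51.2% were higher in CSP, against 32.5% with median centring of each array and 39.6% after scaling between arrays. Without TSP 1 and TSP 2, 4 of 6 were called higher, against 10.2% of genes called higher, 9.06% called lower and 19.3% called in either direction. On 5 of 6 genes the CSP arrays lay wholly above the CMP arrays, which 11.1% of all genes with a value on each of these arrays did (9.2% lay wholly below, 20.3% either way). In the fit without TSP 1 and TSP 2 the 95% intervals of the receptors were 4.17 to 5.62 for Pdgfrb and 2.80 to 4.49 for Pdgfra. Those of the ligands were 1.1 to 2.90 for Pdgfc, 0.53 to 1.56 for Pdgfa, 0.17 to 1.97 for Pdgfd and -1.54 to 0.35 for Pdgfb. In that fit the Pdgfrb interval lay above that of every ligand, and the Pdgfra interval met that of Pdgfc by a small stretch. With all arrays the intervals were wider, 2.78 to 7.01 for Pdgfrb, 2.20 to 5.09 for Pdgfra and 0.80 to 3.20 for Pdgfc. Both receptor intervals then met that of Pdgfc. A difference between genes in the size of change was not tested. The brighter Pdgfa probe had the highest mean log2 intensity of the member probes, 14.16, followed by Pdgfrb at 12.64. Compression of ratios at high intensity was not tested. In sorted but mixed cells, fewer cells of a type and less RNA per cell cannot be told apart.

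After partial thyroidectomy, the same comparison gave 0 calls among the 6 members and among all 20455 genes with all arrays (0% called; limma; 2797 genes had an unadjusted p under 0.05). Without TSP 1 alone 510 genes were called, and without TSP 2 alone 609, both receptors among them each time. The group means were 1.84 in TSP against -2.07 in TMP for Pdgfrb, and -0.91 in TSP against -3.30 in TMP for Pdgfra, with SDs in TSP of 2.61 and 1.61 (n = 6). These SDs cover TSP 1 and TSP 2, which lay within the range of the main population arrays for Pdgfa, Pdgfb and Pdgfc, within or just above it for both receptors and below it for Pdgfd. No member's TSP arrays lay wholly apart from its TMP arrays, which 3.92% of genes did, 1.45% with TSP above and 2.47% with TSP below. Without TSP 1 and TSP 2, 4 of 6 members were called, all higher, where 14.7% of genes were called, 7.67% higher and 7.01% lower. Pdgfrb then differed by 5.58 (SE 0.37, 48.0-fold; limma, adjusted p = 5.04e-08), Pdgfra by 3.39 (SE 0.43, 10.5-fold; 4.33e-05), Pdgfc by 2.02 (SE 0.46; 0.00554) and Pdgfa by 1.44 (SE 0.26, 2.72-fold; 0.00099). Pdgfd, at 0.83 (95% interval -0.15 to 1.81, adjusted p = 0.285), and Pdgfb, at -0.61 (-1.63 to 0.41, 0.49), did not pass in limma. On 4 of 6 genes TSP 3 to TSP 6 lay wholly above TMP, against 12.6% of all genes (11.2% lay wholly below, 23.8% either way). TSP 1 and TSP 2 were left out for a profile like that of the main population. That choice by itself favours larger differences, smaller p-values and groups that do not overlap, for these members and for all genes.

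**Figure D3:**
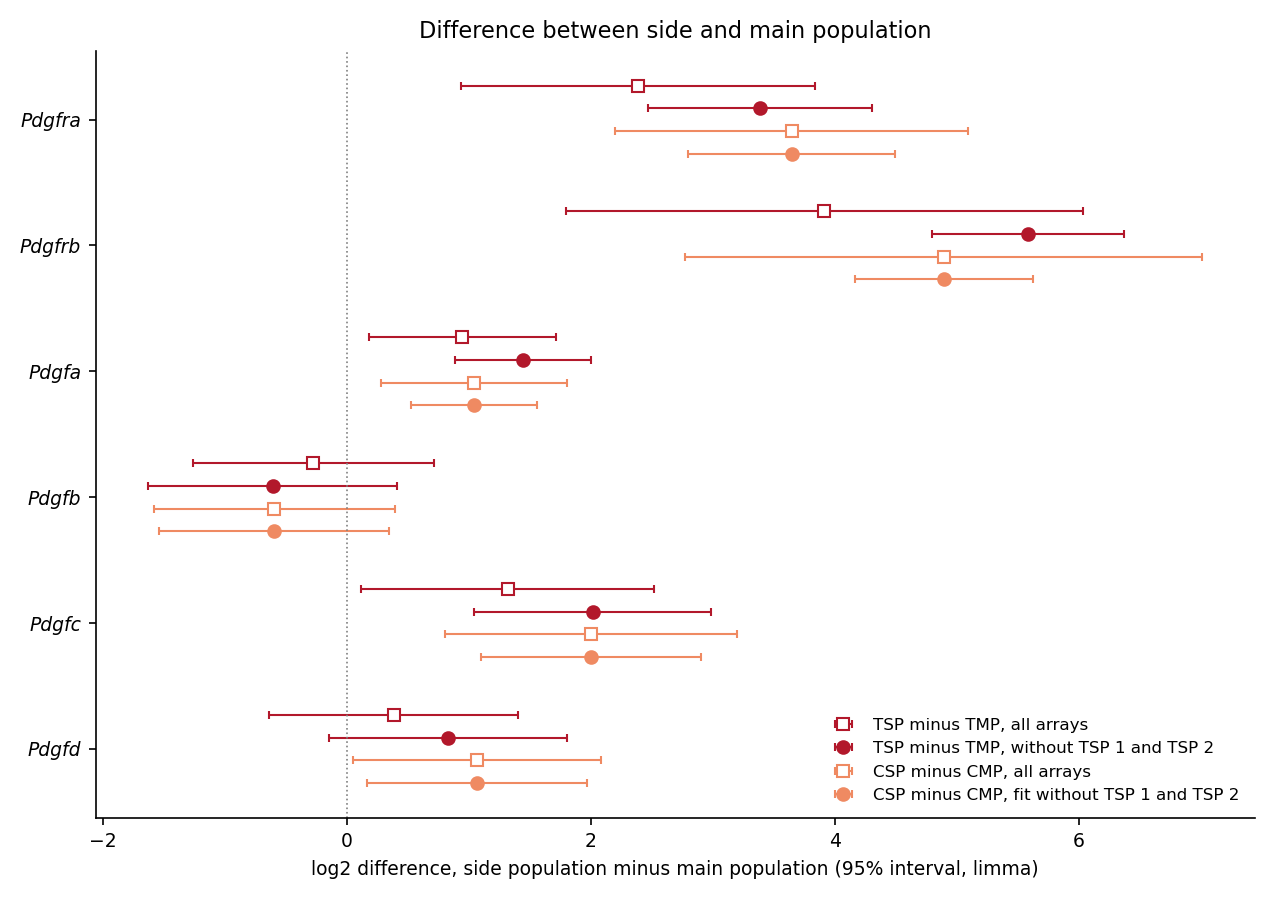
Difference between side and main population in log2 units (x axis) with 95% intervals from limma for the 6 PDGF genes, for TSP minus TMP and CSP minus CMP, each with all arrays (open squares) and in the fit without TSP 1 and TSP 2 (filled circles). Both receptors lie right of every ligand in the filled series, from 3.39 to 5.58, and the intervals of Pdgfb cross 0 in all 4 series.

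In TSP against CSP no gene of 20455 was called with all arrays or without TSP 1 and TSP 2 (0% called, limma; 1859 and 701 genes with an unadjusted p under 0.05). With slide as a fixed block 897 genes were called with all arrays and 18 without these 2, with slide as a random block 241 and 0, and 0 members in any of these 4 fits. Without TSP 1 and TSP 2 Pdgfrb averaged 3.51 ± 0.47 in TSP (SD, n = 4) and 2.99 ± 0.57 in CSP (SD, n = 6), a difference of 0.53 (95% interval -0.14 to 1.19). For Pdgfra the interval ran from -0.86 to 0.69, for Pdgfa from -0.27 to 0.67 and for Pdgfb from -1.12 to 0.60. For Pdgfc it ran from -0.53 to 1.11 and for Pdgfd from -0.96 to 0.69. Every interval held 0, and changes of 2-fold in at least 1 direction lie inside those of Pdgfrb, Pdgfb and Pdgfc. With all arrays the differences were -1.14 for Pdgfrb and -1.09 for Pdgfra (limma, adjusted p = 0.674 and 0.573).

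In TMP against CMP 0 of 20455 genes were called as well (0% called, limma; 25 genes with an unadjusted p under 0.05). The differences were -0.16 for Pdgfrb (95% interval without TSP 1 and TSP 2 -1.0 to 0.68), 0.17 for Pdgfra (-0.81 to 1.15) and between -0.24 and 0.28 for the 4 ligands. The replicate numbers of these groups pair arrays of the same slide. With the number as a block in a fit of these 6 arrays, 6 genes of 20455 were called and 0 of them were members (limma; 1223 genes had an unadjusted p under 0.05). The differences and intervals above come from the fit of 4 groups, which does not use this pairing. The test of whether the population difference changed with surgery called 0 genes too (0% called, limma; 220 genes with an unadjusted p under 0.05 with all arrays). For Pdgfrb that change was 0.69 without TSP 1 and TSP 2 (95% interval -0.38 to 1.76), which leaves room for a change of more than 3-fold in the upper direction. Ordered by mean without those arrays, Pdgfrb ran TSP, CSP, CMP, TMP, and Pdgfra ran CSP, TSP, TMP, CMP. For both, no difference beyond the spread was found between the 2 side population groups or the 2 main population groups, and the step between the populations exceeded it. The same held for Pdgfa, with means of 2.85, 2.64, 1.60 and 1.40 in TSP, CSP, CMP and TMP, and for Pdgfc, with -0.80, -1.09, -2.81 and -3.09 in TSP, CSP, TMP and CMP. Pdgfd ran CSP, TSP, TMP, CMP (1.18, 1.04, 0.21 and 0.11) and Pdgfb CMP, TMP, CSP, TSP (2.76, 2.52, 2.17 and 1.91), and for these 2 genes no step between neighbours exceeded the spread.

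Slides held different groups, so the differences were also taken within slides. Slide 4 held CSP 5, CSP 6 and CMP 2, and CSP exceeded CMP there by 5.17 for Pdgfrb, 3.61 for Pdgfra, 1.95 for Pdgfc, 1.34 for Pdgfa and 1.32 for Pdgfd. Slide 5 held TSP 5, TSP 6 and TMP 3, and TSP exceeded TMP there by 5.59 for Pdgfrb, 3.74 for Pdgfra, 2.28 for Pdgfc, 1.56 for Pdgfa and 1.47 for Pdgfd, with Pdgfb at -0.84. For the receptors, Pdgfc, Pdgfa and Pdgfd these values lay within the 95% intervals of the fit without TSP 1 and TSP 2. Pdgfb on slide 4, at 0.37, lay just above the Pdgfb interval of -1.54 to 0.35. The arrays of both slides are part of that fit, so nearness to its intervals is partly built in and is no separate check. With 2 arrays against 1 on slide 4, no gene passed the test there (limma; 4378 genes had an unadjusted p under 0.05). Slide 1 held TSP 1, TSP 2, CSP 1 and CSP 2, and there TSP lay below CSP, with differences of -4.82 for Pdgfrb and -3.79 for Pdgfra. On slide 3, with TSP 3, TSP 4, CSP 3 and CSP 4, the same differences were 0.64 and 0.85.

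The side population arrays were not alike in their other cell markers. Fibroblast markers rose in CSP over CMP for 7 of 10 genes, endothelial markers for 9 of 10, and pericyte and smooth muscle markers for 3 of 12 with 1 fall (limma, all arrays), where 7.61% of all genes rose and 7.25% fell. In the fit without TSP 1 and TSP 2 these counts were 9 of 10, 9 of 10 and 6 of 12 with 1 fall, where 10.2% of all genes rose and 9.06% fell. Mean levels of the fibroblast list ran from -0.47 to 0.72 on TSP 3 to TSP 6 and from -1.79 to 0.45 on the CSP arrays, against -3.54 to -2.73 on the TMP arrays and -3.74 to -3.01 on the CMP arrays. Mean levels of the endothelial list ran from 0.50 to 1.61 on TSP 3 to TSP 6 and from 0.54 to 1.97 on the CSP arrays, against -2.12 to -1.38 on the TMP arrays and -2.25 to -1.65 on the CMP arrays. The pericyte and smooth muscle means ran from -0.04 to 0.66 on TSP 3 to TSP 6 and from -0.51 to 0.24 on the CSP arrays, against -1.29 to -0.78 on TMP and -1.53 to -0.92 on CMP. No array had all defining markers at background: 8 to 10 of the 10 fibroblast and 8 to 10 of the 10 endothelial markers were well above it on every array. Macrophage markers (1 rose and 2 fell of 7, and 3 fell without TSP 1 and TSP 2) and platelet markers (0 rose and 2 fell of 5 in both fits) had median differences between CSP and CMP of -0.59 and 0.13, against 0.06 for all genes. The part of these cell types in the PDGF differences was not tested.

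Within the 10 side population arrays other than TSP 1 and TSP 2, the levels of several PDGF genes varied with the means of marker lists. Pdgfrb varied with the mean of the fibroblast markers, a list without either receptor (r = 0.865, rho = 0.867; permutation p = 0.00132 and 0.00231, adjusted 0.0215 and 0.0331 over 18 relations of member and list). Without the 2 arrays farthest from the median of Pdgfrb, r was 0.911, and on deviations from slide means it was 0.928. Pdgfra varied with the same list (r = 0.808, rho = 0.733; permutation p = 0.00478 and 0.0208, adjusted 0.0215 and 0.0624), with r = 0.613 without the 2 farthest arrays and 0.972 on deviations from slide means. The ligands Pdgfb and Pdgfc moved in opposite directions along the endothelial markers. Pdgfb was higher where these were higher (r = 0.833, rho = 0.806; permutation p = 0.0027 and 0.00731, adjusted 0.0215 and 0.0331; 0.755 without the 2 farthest arrays and 0.94 on slide deviations). Pdgfc was lower there (r = -0.832, rho = -0.794; permutation p = 0.00361 and 0.00919, adjusted 0.0215 and 0.0331; -0.865 without the 2 farthest arrays and -0.865 on slide deviations).

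Of the 18 relations, 2 more passed on r after adjustment and 1 on rho alone. Pdgfc varied with the fibroblast list (r = 0.758, rho = 0.685; permutation p = 0.0101 and 0.0347, adjusted 0.0363 and 0.0795; 0.934 without the 2 farthest arrays and 0.827 on slide deviations). Pdgfrb ran against the endothelial list (r = -0.748, rho = -0.83; permutation p = 0.0157 and 0.00462, adjusted 0.0472 and 0.0331; -0.572 without the 2 farthest arrays and -0.893 on slide deviations). Pdgfrb varied with the pericyte and smooth muscle list by rank (r = 0.659, rho = 0.794; permutation p = 0.0358 and 0.00882, adjusted 0.0921 and 0.0331; 0.72 without the 2 farthest arrays and 0.833 on slide deviations). Pdgfd passed with none of the lists, at r = 0.508 for endothelial, -0.471 for fibroblast and -0.112 for pericyte and smooth muscle markers (permutation, adjusted p of r 0.243, 0.243 and 0.807, of rho 0.174, 0.187 and 0.915).

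The ligand genes Pdgfb and Pdgfc also ran against each other across these 10 arrays. Their correlation was r = -0.824 and rho = -0.879 (permutation p = 0.00373 and 0.00173, adjusted 0.0559 and 0.0259 over 15 pairs of members), r = -0.793 without the 2 farthest arrays and r = -0.914 on deviations from slide means. CSP 4 had the lowest Pdgfb level of the 10, 0.81, and the highest Pdgfc level, 0.17. The receptors correlated at r = 0.607 and rho = 0.552 (permutation p = 0.0632 and 0.105, adjusted 0.158 and 0.259). Pdgfa passed with none of the 3 lists (r between -0.177 and 0.332). The means of several genes on an array share its labelling and slide, and each relation rests on 10 samples. The fibroblast and endothelial means tended to run in opposite directions on these arrays, which was not tested. The relations above are therefore not independent of each other.

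**Figure D4:**
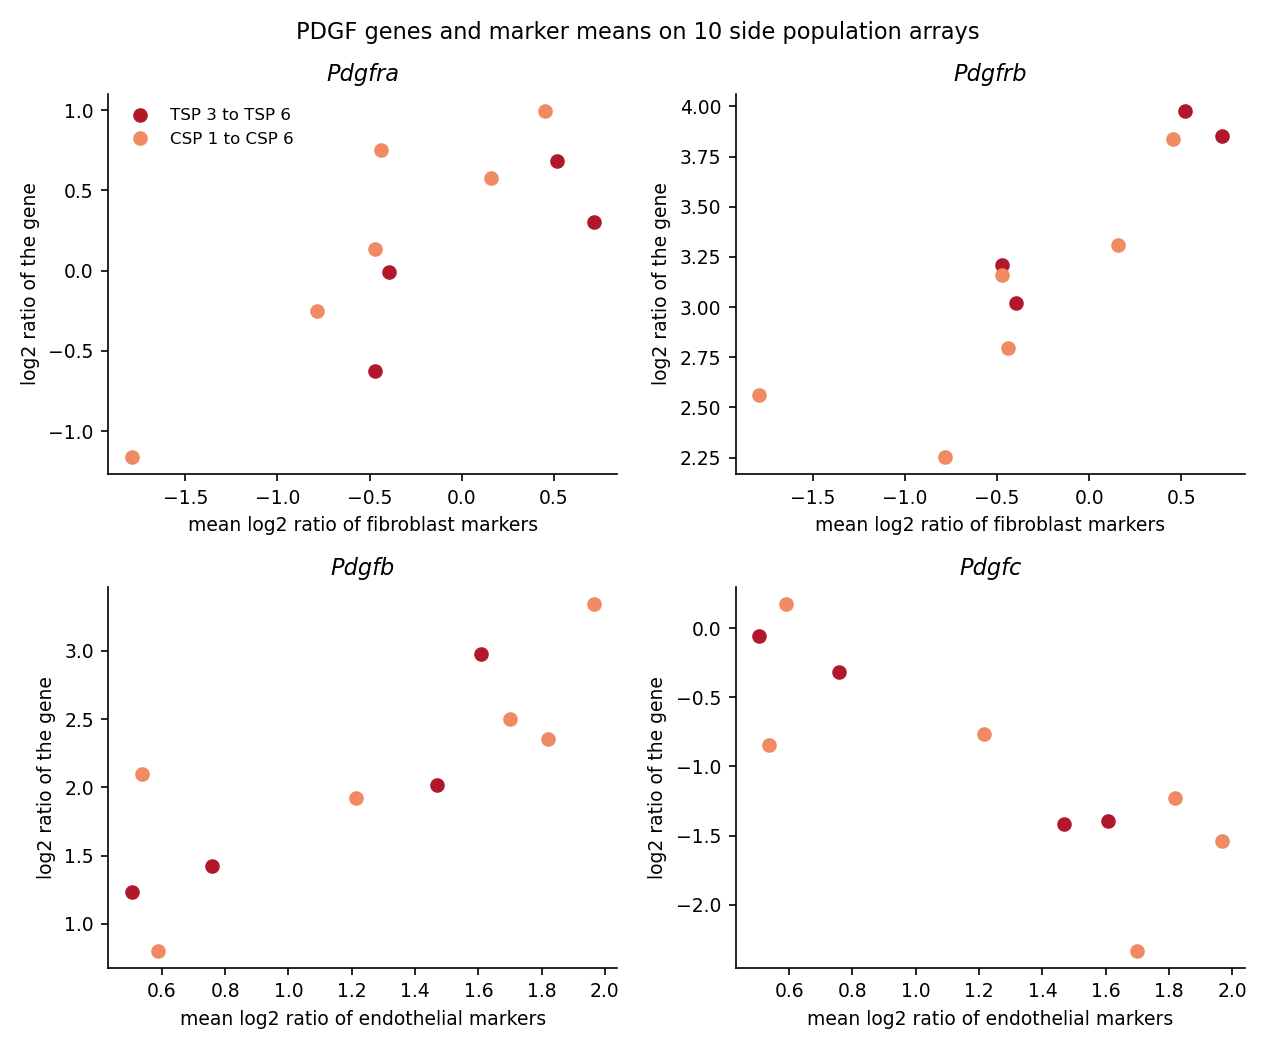
Log2 ratio of Pdgfra and Pdgfrb (y axis) against the mean log2 ratio of 10 fibroblast markers (x axis), and of Pdgfb and Pdgfc against that of 10 endothelial markers, on TSP 3 to TSP 6 and CSP 1 to CSP 6. Each point is an array. Points rise to the right for both receptors and Pdgfb (r = 0.808, 0.865 and 0.833) and fall for Pdgfc (r = -0.832).

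The genes with levels most like each member over the 18 arrays were found among 19987 genes with a value on every array, by Pearson correlation, given as a description. The step between populations enters this likeness, so the correlation of deviations from group means over 16 arrays is given second. For Pdgfra they were Lum (0.985 and 0.858), a collagen-binding proteoglycan, Fbn1 (0.985 and 0.9), the microfibril protein fibrillin, Colec12 (0.982 and 0.835), Cspg2 (0.979 and 0.857) and Tnfaip6 (0.977 and 0.784). For Pdgfrb they were Penk1 (0.994 and 0.835), an opioid peptide precursor, Rcn3 (0.992 and 0.897), the collagen receptor kinase Ddr2 (0.99 and 0.856), the procollagen protease Adamts2 (0.989 and 0.883) and the endothelin receptor Ednra (0.988 and 0.57). Lum is also a member of the fibroblast list.

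Among the ligands, Pdgfc was most like Apbb1ip (0.974 and 0.924), the cadherin Cdh11 (0.964 and 0.868), Ccbe1 (0.957 and 0.876), Adcy7 (0.955 and 0.81) and Adam19 (0.955 and 0.8). Pdgfa was most like the phosphodiesterase Pde1a (0.96 and 0.707), Ahctf1 (0.958 and 0.82), Ppp1r3d (0.955 and 0.877), Kcnab1 (0.948 and 0.59) and Lip1 (0.948 and 0.689). Pdgfb, read by its brighter probe, which did not separate the populations, had lower values. It was led by AW049765, now Stap2 in RefSeq (0.94 and 0.928), 1810009M01Rik, now Tmem176b (0.884 and 0.925), 2610203E10Rik, now Accs (0.876 and 0.903), Hip1r (0.87 and 0.916) and Scarb1 (0.867 and 0.894). Pdgfd was led by Rbak (0.917 and 0.931), Wbp5, now Tceal9 (0.907 and 0.869), AJ290945 (0.888 and 0.778), Smu1 (0.882 and 0.798) and Kcne3 (0.881 and 0.749). For each of the first 5 genes of Pdgfb and Pdgfd the deviations within groups correlated at 0.749 or more.

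Genes that activate the latent C and D chains differed between the populations in opposite directions. Plat, the tissue plasminogen activator that removes the CUB domain of the C chain, was 11.3-fold higher in CSP than in CMP (log2 difference 3.50, SE 0.69; limma, adjusted p = 0.00797). Plau, the urokinase that can do so for the D chain, was lower (difference -3.00, SE 0.49; adjusted p = 0.00795), and St14, the membrane protease matriptase that can also cut the D chain, was 8.55-fold lower (difference -3.10, SE 0.72; adjusted p = 0.0106), both in limma. Without TSP 1 and TSP 2, TSP minus TMP gave 3.17 for Plat, -2.35 for Plau and -2.89 for St14, all called. The convertase genes Furin (-0.53), Pcsk5 (0.54) and Pcsk6 (0.25), which cut the A and B chains inside cells, did not pass between CSP and CMP.

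Of the 11 genes of PDGF processing and binding, 4 rose and 2 fell in CSP over CMP (limma, all arrays), with a median difference of 0.54 against 0.06 for all genes, of which 7.61% rose and 7.25% fell. Lrp1, an endocytic receptor that associates with the beta receptor, rose by 2.20 (SE 0.49), and Nrp1, a coreceptor for several growth factors that include PDGFs, by 1.39 (SE 0.40). Plaur, the receptor of urokinase, rose by 0.77 (SE 0.21). Adjusted p of these 3 was between 0.00934 and 0.026 in limma. Sparc, a matrix protein that binds the B chain, had a difference of 0.79 and passed only without TSP 1 and TSP 2 (adjusted p = 0.0787 with all arrays and 0.0407 without), and the matrix protein Thbs1 had -0.31. In TSP against TMP without TSP 1 and TSP 2, 4 rose (Plat, Lrp1, Nrp1 and Sparc) and 2 fell (Plau and St14), where 7.67% of all genes rose and 7.01% fell. The differences were 2.09 for Lrp1, 1.54 for Nrp1 and 1.18 for Sparc.

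**Figure D5:**
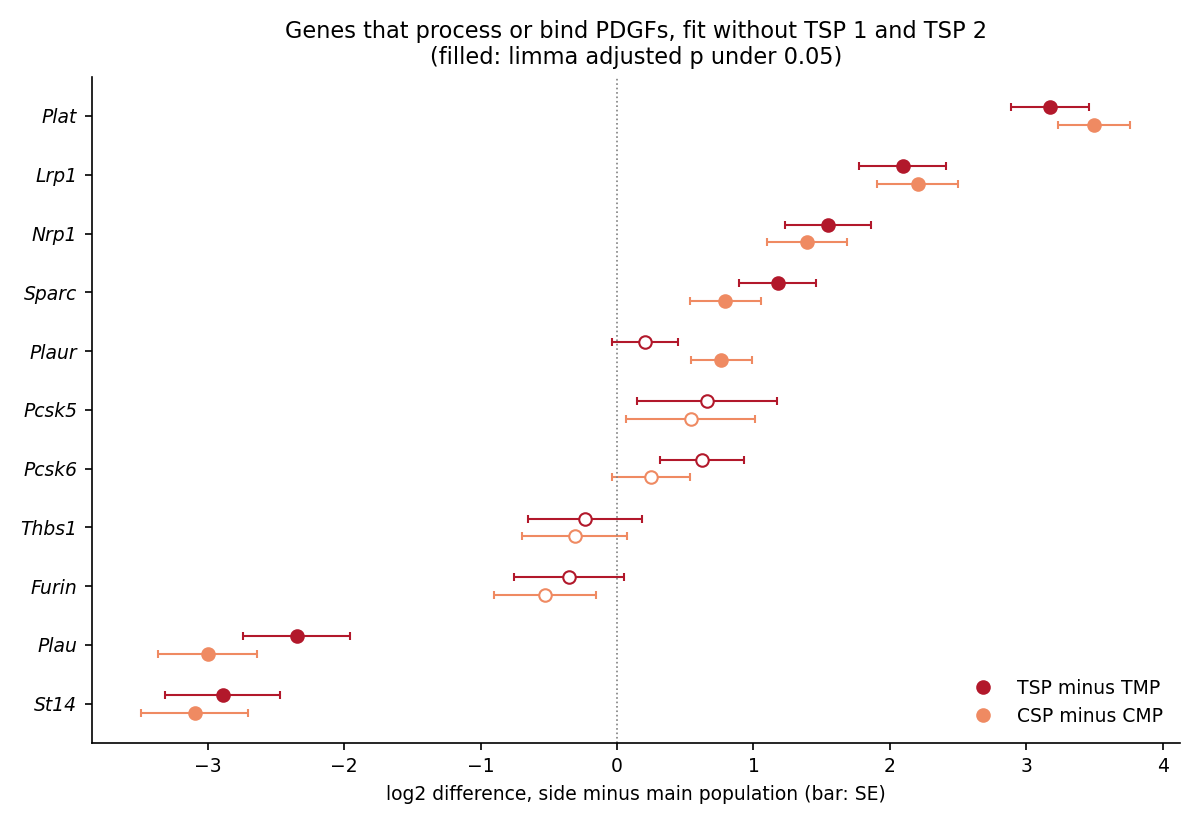
Log2 difference between side and main population (x axis, bars are SE) of 11 genes whose products process or bind PDGFs, for TSP minus TMP and CSP minus CMP in the fit without TSP 1 and TSP 2. Filled points have a limma adjusted p under 0.05. Plat lies furthest right, at 3.17 and 3.50, and Plau and St14 lie left, between -3.10 and -2.35.

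Downstream of the receptors, 32 genes of proximal signalling were measured, of which 2 rose and 7 fell in CSP over CMP, with a median of 0.05 against 0.06 for all genes, of which 7.61% rose and 7.25% fell (limma, all arrays). Pik3r1, the regulatory subunit of the PI3 kinase that docks on phosphorylated receptors, rose by 1.45, and the Src family kinase Fyn by 1.09. The falls were -3.10 for the adaptor Grb14, -2.10 for the PI3 kinase catalytic subunit Pik3cb, -1.76 for the adaptor Grb7, -1.60 for the scaffold Slc9a3r1, -1.56 for the phosphatase Ptpn11, -1.54 for the receptor phosphatase Ptprj and -1.36 for the kinase Src (adjusted p between 0.00795 and 0.0412). Most of this machinery serves many receptors. Without TSP 1 and TSP 2, 3 rose and 9 fell in CSP over CMP, where 10.2% of all genes rose and 9.06% fell. In TSP over TMP 2 rose and 7 fell, where 7.67% of all genes rose and 7.01% fell. There Ptpn2 (-1.57) was called and Ptpn11 was not.

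Among 8 genes of the related class III receptor kinases, their ligands and the PDGF receptor-like protein, 2 rose and 0 fell in CSP over CMP, with a median of 0.14 against 0.06 for all genes, of which 7.61% rose and 7.25% fell (limma, all arrays). Pdgfrl, which resembles the outer part of the receptors but has no kinase, rose by 2.20 (SE 0.61, adjusted p = 0.0231), and Kitl, the ligand of Kit, by 2.05 (SE 0.56, adjusted p = 0.02). Kit itself had a difference of 0.86 and did not pass (limma, adjusted p = 0.176). The same 2 genes were called in TSP over TMP without TSP 1 and TSP 2, Pdgfrl at 2.63 and Kitl at 1.86, where 7.67% of all genes rose and 7.01% fell.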

How the data were processed

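Each of the 18 deposited scanner files holds 45018 spots of a 2-colour Agilent array, of which 43379 are not controls. Intensity values are mean pixel signals and local background medians from Agilent Feature Extraction, per the file headers. The submitters' processing notes name version 8.5.1.1 and the file headers name another, and which was used is not known. The authors' deposited files also hold signals processed by the scanner software, with a log10 ratio of Cy5 over Cy3. Spots that this software marked as non-uniform or outlying were left out. The value table that the authors deposited (log2 ratios, column medians 0.127 to 0.302) does not state scale, centring or direction. Among its 18 columns, 9 correlated best with the scanner file of their own label, so it served only as an alternative, and arrays are numbered by the scanner files.

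Background was corrected with normexp (offset 50), ratios were normalised by loess within arrays and converted to log2, and spots of a probe were averaged. The brightest probe represented a gene, out of the probes that exceeded background clearly in Cy5 on 3 or more arrays. Probes were matched to RefSeq symbols through accessions (22951 of 41174 matched). A limma model (version 3.58.1, R 4.3.3, data.table version 1.17.8) of 4 group means gave 5 contrasts, and an adjusted p under 0.05 (Benjamini-Hochberg over 20455 genes) counted as a call. It was also run on simulated data with independent noise on each array. That setting had no slide effect and no arrays that stand apart, so it cannot check the model for these. Relations across arrays were tested with 1e+05 permutations. Figures were drawn with Python 3.11.15, pandas 2.3.3 and matplotlib 3.10.9. Samples are biological replicates per the series' design text, but which animals they came from is not given in the sources used here, so p-values measure the spread between these samples.

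Replicate numbers were checked as pairs by correlating deviations from group means over genes. In TMP and CMP same-numbered arrays, which share slides, correlated at 0.666, 0.742 and 0.808. In the other comparisons at least 1 pair was below 0.1. In TSP and CSP, numbers 3, 4 and 5 correlated best with their own number (0.328, 0.218 and 0.464), and numbers 1, 2 and 6 did not (0.0327, -0.0522 and 0.0558). The genes named were every member with every probe, all listed genes that passed the test or act directly on a PDGF chain, and the 5 genes most correlated with each member. A gene of the processing list is not reported here and was left out of its counts. Members, lists and the choice to leave out TSP 1 and TSP 2 were made with earlier results of these data known. Alternatives changed the background correction, normalisation, filter, spot marks, probe choice, slide, replicate number, arrays and source of values. The genome positions are those of the file headers (mm7), and gene structure at the probes was not analysed here.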

Additional observations from a re-analysis of the deposited data

How the results depend on the processing

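No member called in CSP against CMP or TSP against TMP changed sign under any alternative. Of the 6 members, the number called in CSP against CMP was 3 with all arrays; it was 1 after scaling between arrays, 5 with slide as a fixed block, 5 with slide as a random block and 0 within slide 4, where 0 of 20442 genes were called and 4378 had an unadjusted p under 0.05 (limma). In TSP against TMP it was 0 with all arrays, 1 with slide as a fixed block (224 of 20455 genes called) and 4 without TSP 1 and TSP 2 (3003 of 20455). In TSP against CSP it was 0, and 5 within slide 1, which holds TSP 1 and TSP 2 and where 8320 of 20454 genes were called. In the fit without TSP 1 and TSP 2, 4 in CSP against CMP (3938 of 20455 genes called) became 2 after scaling between arrays (2013 of 20455). Leaving out each array in turn gave 2 to 4 calls in CSP against CMP and 0 to 2 in TSP against TMP (2 without TSP 1 or without TSP 2), and 0 to 0 in the other 3 comparisons; without TSP 1 and TSP 2 it gave 4 to 5, 4 to 4 and 0 to 0. With the replicate number as a block, 2 members were called in CSP against CMP with all arrays and 4 without TSP 1 and TSP 2, and 3 in a fit of only these groups. Of 20455 genes, 1998, 4553 and 2533 were called in these fits. The numbers paired arrays for every number in TMP and CMP and for some numbers in TSP and CSP. With that block in fits of only the groups compared, 0 members were called in TMP against CMP and 0 in TSP against CSP. Pdgfrb lost its call in CSP against CMP after scaling between arrays (difference 4.50, adjusted p = 0.254, and 0.122 without TSP 1 and TSP 2), and Pdgfrb (5.17, 0.0943) and Pdgfra (3.61, 0.098) within slide 4, all limma. Pdgfc lost it with median centring (1.93, 0.0717), the replicate block (1.37, 0.0719), scaling (1.86, 0.0564), the scanner software's signals (1.92, 0.0542) and within slide 4 (1.95, 0.136). Without TSP 1 and TSP 2, Pdgfa lost its calls after scaling (0.97, 0.735 in CSP against CMP; 3.19, 0.131 in TSP against TMP) and, in CSP against CMP, with the replicate block in a fit of only these groups (0.68, 0.251), and Pdgfc lost its call in TSP against TMP with slide as a fixed block (1.98, 0.0533). The cause was not tested, except that single slides hold fewer arrays.

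Of all genes, 3039 were called in CSP against CMP (51.2% higher), 447 after scaling (39.6%), 2627 with median centring (32.5%), 5758 and 5349 with the slide blocks (61.6% and 56.3%), 1998 with the replicate block, 1144 without CMP 1 and 569 without CMP 2. In TSP against TMP 0 were called with all arrays, 510 without TSP 1 and 609 without TSP 2. Median centring moved the median difference of all genes from 0.0604 to -0.0812, and the scanner software's signals to -0.0692. Signal over background limits the second Pdgfra, Pdgfb and Pdgfd probes, which were not well above it on every array.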
